A study of Homo sapiens with 4 samples.

Results

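Metallothioneins are small cysteine-rich proteins that hold zinc, copper and cadmium, and MTF1 is the zinc-finger transcription factor that activates their genes when free zinc rises. Their transcripts were followed in RNA sequencing of the MDA-MB-231 cell line, which comes from a human breast cancer of the triple-negative kind, after siRNA knockdown of hTrmt13 (gene TRMT13), a tRNA methyltransferase that modifies the ribose of tRNA. The members were the rows of the count table with the symbols MT1E, MT1F, MT1G, MT1M, MT1X, MT2A and MTF1, which are 7 of 28930 gene symbols. The 2 control libraries came from cells given a control siRNA and the 2 knockdown libraries from cells given an siRNA against hTrmt13. Libraries of a group are labelled only as replicates, so the p-values measure the spread between these libraries, which may be technical. No source used here gives the sequences, doses or times of the siRNA treatment. The study asks which genes hTrmt13 affects at the level of transcription.

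The metal ions are bound by the cysteines, which metallothioneins carry at fixed spacings. Zinc entering the cell is bound by MTF1, which then moves to short DNA motifs called metal response elements upstream of metallothionein genes and of the zinc exporter gene SLC30A1. Glucocorticoids and oxidants also induce metallothionein genes, MT2A being a long-known glucocorticoid target in human cells. The MT1 and MT2A genes sit in a cluster on chromosome 16, in the RefSeq GRCh38.p14 order MT4, MT3, MT2A, MT1E, MT1M, MT1A, MT1B, MT1F, MT1G, MT1H and MT1X when pseudogenes are left out, whereas MTF1 is on chromosome 1. The cluster lies between BBS2 and NUP93.

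The coding sequences of the most abundant pair, MT2A and MT1E, are shown to make plain how alike the genes are. They are from GENCODE 29 transcripts, run 5′ to 3′ from the start codon, leave out the stop codon, and have the cysteine codons in capitals.
MT2A: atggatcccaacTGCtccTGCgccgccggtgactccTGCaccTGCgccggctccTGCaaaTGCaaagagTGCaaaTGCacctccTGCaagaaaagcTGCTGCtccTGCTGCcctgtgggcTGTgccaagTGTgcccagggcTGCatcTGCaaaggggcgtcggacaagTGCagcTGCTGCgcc
MT1E: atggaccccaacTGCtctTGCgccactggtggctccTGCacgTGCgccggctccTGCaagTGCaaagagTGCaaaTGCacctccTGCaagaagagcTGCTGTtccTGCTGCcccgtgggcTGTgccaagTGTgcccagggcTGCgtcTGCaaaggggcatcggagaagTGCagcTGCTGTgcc
Each of the 6 metallothionein coding sequences had 61 codons, of which 20 (32.8%) were cysteine codons. MT2A and MT1E shared 169 of 183 coding bases (92.3%), and over all pairs the identity ran from 88.5% for MT1F with MT1X to 95.1% for MT1G with MT2A. Of the stretches of 50 bases along the main GENCODE transcript, 95.1% in MT2A, 94.7% in MT1E, 96.4% in MT1F and 92.9% in MT1M occurred in no other annotated gene. That share was 79.8% for MT1G and 54.9% for MT1X, so the counts of these 2 genes can be shared with or lost to other annotated genes. MT1X shared stretches with 9 other genes, of which 8 bore metallothionein symbols. The 50-base window is only a yardstick, since no source used here gives the read length. MTF1 had 99.1% of its stretches to itself.

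Upstream sequence was available for MT2A, MT1X and MTF1, that is for 3 of the 7 members. The 250 bases before each annotated start (RefSeq, GRCh38.p14) are shown with the metal response element cores in capitals, to set the target genes beside the gene of their activator. The motifs searched were TGCACNC (core 1) and TGCGCNC (core 2), on both strands, and no matches overlapped.
MT2A, chr16:56608334-56608583, plus strand: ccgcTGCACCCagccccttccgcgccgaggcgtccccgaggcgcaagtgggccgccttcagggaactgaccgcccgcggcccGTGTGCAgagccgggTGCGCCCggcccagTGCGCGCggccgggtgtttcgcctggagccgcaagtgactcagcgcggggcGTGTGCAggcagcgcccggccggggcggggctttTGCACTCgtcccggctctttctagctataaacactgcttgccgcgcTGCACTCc
MT1X, chr16:56682220-56682469, plus strand: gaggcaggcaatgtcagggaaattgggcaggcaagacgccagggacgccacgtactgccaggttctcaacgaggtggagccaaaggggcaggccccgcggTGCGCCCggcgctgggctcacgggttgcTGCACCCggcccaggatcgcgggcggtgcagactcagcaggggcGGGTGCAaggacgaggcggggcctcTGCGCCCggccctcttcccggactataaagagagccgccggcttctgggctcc
MTF1, chr1:37859593-37859842, minus strand: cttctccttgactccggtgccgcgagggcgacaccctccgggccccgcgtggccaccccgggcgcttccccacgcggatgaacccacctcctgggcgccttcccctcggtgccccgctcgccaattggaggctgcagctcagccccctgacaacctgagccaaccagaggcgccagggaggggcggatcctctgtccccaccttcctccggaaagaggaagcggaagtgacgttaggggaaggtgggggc
The MT2A window held 7 matches, 5 of core 1 and 2 of core 2. The MT1X window held 4, 2 of each core, and the MTF1 window held 0, which says only that these letters are not in it. Among 35116 RefSeq upstream windows of the same length, 24.8% held at least 1 match, 0.37% at least 4 and 0.0313% at least 7. MT2A and MT1X, but not MTF1, also had the letters TATAAA on their own strand within the last 50 bases before the start, as did 2.63% of all windows. A match is a description of the sequence and no binding was measured here.

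**Figure D1:**
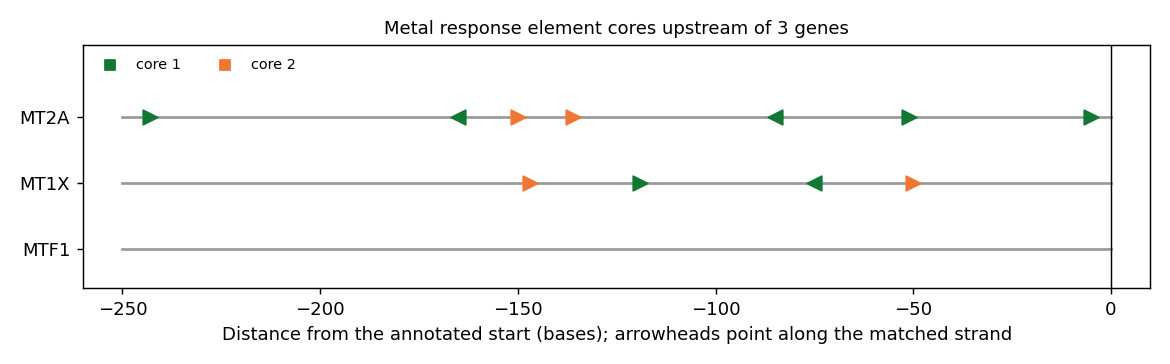
Positions of the metal response element cores in the 250 bases before the annotated starts of MT2A, MT1X and MTF1, with distance from the start in bases on the x axis, core 1 in green and core 2 in orange. MT2A has 7 matches spread over the window, MT1X has 4 within 150 bases of its start, and MTF1 has 0.

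The libraries held between 9777267 and 13098985 counts, so that 1 CPM (the count relative to library size, scaled by TMM) rests on 9.58 to 13.4 counts. TRMT13 stood at 14.9 and 18.9 CPM in control and at 3.52 and 4.79 CPM in knockdown, and it fell 4.05-fold (log2 fold change −2.02, SE 0.34, edgeR adjusted p = 0.0399), and no library went against its label. Changes were called for 2.99% of the 13022 genes that could be tested, 134 of them higher (1.03%) and 255 lower (1.96%). Of the genes that this cell line is known to lack, ESR1 and PGR had 0 counts in each library and CDH1 had 0 or 1 count. ERBB2, whose gene is not amplified in triple-negative cells, was detected, with a control mean of 118.0 ± 8.41 CPM and a knockdown mean of 144.5 ± 30.9 CPM (SD, n = 2). The 5 mesenchymal markers summed to 4495 and 4747 CPM in control and to 3045 and 3381 CPM in knockdown, with 1 of 5 (NT5E) lower past the edgeR threshold. At an unadjusted p under 0.05 there were 3 of 5, all lower, while DESeq2 called 2 and limma-voom 1. The 6 luminal markers summed to 1497 and 1344 CPM in control and to 1241 and 1100 CPM in knockdown, with 0 of 6 past the edgeR threshold (2 at an unadjusted p under 0.05, 0 by DESeq2 and 0 by limma-voom). Of all tested genes, 24% had an unadjusted p under 0.05, DESeq2 called 8.67% and limma-voom 2.5%. Blood-cell markers summed to 0.851 to 1.12 CPM. Fibroblast and endothelial markers summed to 77.9 and 60.7 CPM in control and to 50.7 and 32.4 CPM in knockdown, with 1 of 3 tested lower in edgeR (CDH5) and DCN at 0. At an unadjusted p under 0.05 there were 2 of 3, all lower, while DESeq2 and limma-voom called 1 each. The part of these markers in the results that follow was not tested.

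Only MT2A and MT1E were abundant metallothionein transcripts in these cells. Together they made up 99.1% to 99.6% of all counts on the 12 metallothionein symbols of the table, and 7 of those symbols (MT1A, MT1B, MT1H, MT1HL1, MT1M, MT3 and MT4) had 0 counts in each library. Per length of the main transcript, MT2A led in control with 320.7 ± 35.4 CPM per kilobase (SD, n = 2), followed by MT1E with 102.6 ± 14.3 and, far below, MTF1 with 3.42 ± 0.14. MT1X followed with 1.62 ± 1.32 CPM per kilobase (SD, n = 2), then MT1F with 1.47 ± 0.15 and MT1G with 1.16 ± 1.64. The last 3 did not differ from each other beyond their spread. In knockdown the order of the leading genes was the same, with MT2A at 455.9 ± 100.3, MT1E at 215.9 ± 55.2 and MTF1 at 5.85 ± 0.19 CPM per kilobase (SD, n = 2). MT1X at 3.29 ± 3.71 was there within its own spread of MTF1. These lengths are from GENCODE 29 and not from the annotation the authors counted with.

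No member passed the threshold in the knockdown in the fit used here, which has no replicate term. Of the 7 members, 5 passed the filter on low counts, and 0 of these 5 were called by edgeR at an adjusted p under 0.05, where 2.99% of all tested genes were. At an unadjusted p under 0.05 there were 2 of 5 (MT1E and MTF1), where 24% of all genes passed. MT2A, MT1E and MTF1 had both knockdown libraries above both control libraries, a pattern that 27.5% of all tested genes showed (54.3% had no overlap in either direction). The 5 log2 fold changes were all positive with a median of 0.77, and over all 13022 genes 50.4% were positive and the median was 0.01. DESeq2 called 1 of the 5 (MT1E), where it called 8.67% of all genes, and limma-voom called 0, where it called 2.5%. In bulk RNA, more cells making a transcript and more transcript per cell cannot be told apart.

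**Figure D2:**
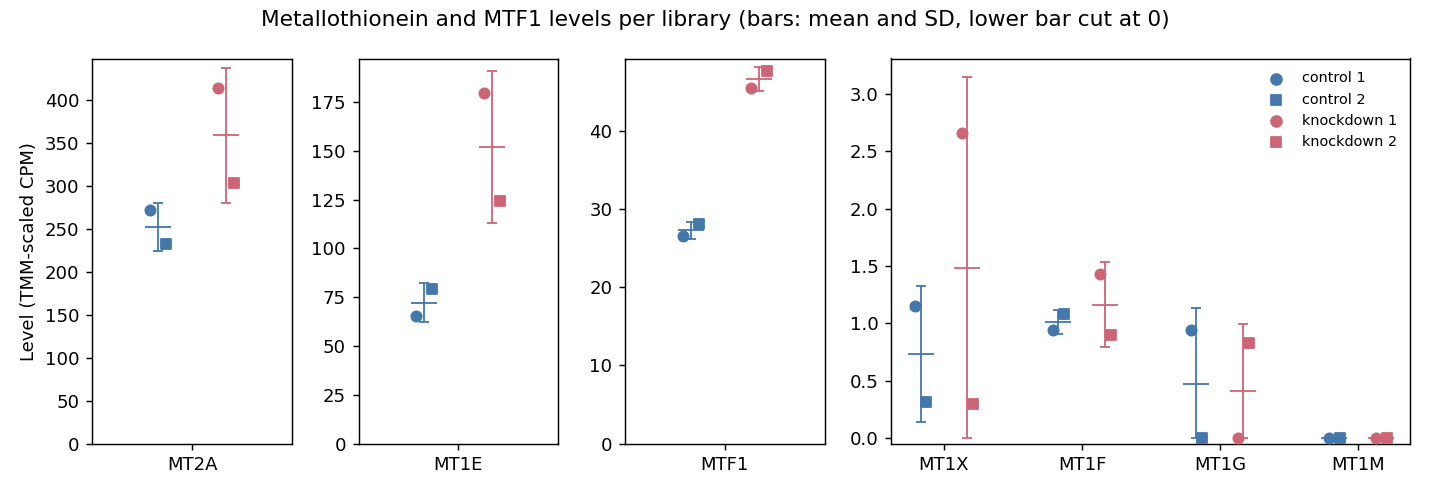
TMM-scaled CPM of the 7 members in the 4 libraries, with control in blue and knockdown in red, replicate 1 as circles and replicate 2 as squares, and bars for mean and SD of 2 libraries. The knockdown points lie above the control points for MT2A, MT1E and MTF1, while MT1X, MT1F and MT1G overlap between groups and MT1M is at 0.

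MT1E, which encodes a metallothionein-1 isoform, had the largest fitted difference of the 5 tested members. Its level was 65.1 CPM in control replicate 1 and 79.4 CPM in control replicate 2, against 179.4 and 124.5 CPM in the knockdown. The groups did not overlap, and knockdown replicate 1 was the highest by a wide margin. The means were 72.2 ± 10.1 and 152.0 ± 38.9 CPM (SD, n = 2), a 2.10-fold ratio (1.07 on the log2 scale with an SE of 0.26, adjusted p = 0.0746 in edgeR), which ranked 688 from the highest among 13022 genes. This difference did not pass the threshold with the filter and test used here. It passed with no filter on low counts (edgeR adjusted p = 0.00243), where 1949 of 18632 tested genes passed. It also passed with DESeq2 (adjusted p = 0.0138), where 8.67% of all tested genes did. Without knockdown replicate 2 the log2 fold change was 1.31. Over these and the other alternatives that keep the design, the adjusted p ran from 0.00243 to 0.192.

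MT2A, the main metallothionein-2 gene and the most abundant member, stood at 271.7 and 232.4 CPM in control and at 414.1 and 302.6 CPM in knockdown. Both knockdown libraries were above both control libraries, yet knockdown replicate 2 lay closer to control replicate 1 than to knockdown replicate 1. The ratio of the groups was 1.42-fold (log2 fold change 0.51, SE 0.24, edgeR adjusted p = 0.253), and the difference did not exceed the spread between replicates in this test. Counting error was small beside that spread, since the pooled counts of 5607 and 8395 give a depth-scaled ratio of 1.41 (95% exact binomial interval 1.36 to 1.46, counting error only).

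MTF1 had the closest replicates of the group. It stood at 26.5 and 28.1 CPM in control and at 45.5 and 47.7 CPM in knockdown. The groups lay far apart relative to their own spread, at 27.3 ± 1.11 and 46.6 ± 1.53 CPM (SD, n = 2). The ratio was 1.71-fold (log2 fold change 0.77, SE 0.23, edgeR adjusted p = 0.114). edgeR moderates each gene's spread towards that of genes of like abundance, and with this moderated spread the difference did not pass. MTF1, MT1E and MT2A did pass in a fit with the replicate number as a block, a pairing that the labels do not establish. In that fit 5227 of 13022 tested genes passed.

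The remaining metallothioneins were near the detection floor. MT1X had 11 and 4 counts in control and 28 and 4 in knockdown, or 1.15 and 0.31 against 2.66 and 0.30 CPM. The replicate 2 libraries of the groups were nearly level, and the fitted difference of 1.03 on the log2 scale (SE 1.04, edgeR adjusted p = 0.59) turned to −1.19 without knockdown replicate 1 and was 2.17 without control replicate 1. MT1F had 9 and 14 counts in control and 15 and 12 in knockdown, a depth-scaled ratio of 1.11 (95% exact binomial interval 0.611 to 2.02, counting error only), and its groups overlapped. Its fitted difference of 0.18 on the log2 scale (SE 0.51, edgeR adjusted p = 0.869) turned to −0.17 without knockdown replicate 1. MT1G, an isoform gene not tested for its low counts, had 9 counts in control replicate 1 and 11 in knockdown replicate 2, and 0 in the other libraries. A count of 0 allows up to 3 counts (counting error only). That is 0.232 CPM in control replicate 2 and 0.285 CPM in knockdown replicate 1. MT1M had 0 counts in each library. On the same basis this allows up to 0.133 CPM over the control group and 0.126 CPM over the knockdown group. No difference was detectable at this depth for MT1G or MT1M.

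The makeup of the metallothionein RNA was described from counts within each library, where scaling cancels. MT1E took 19.3% (95% exact binomial interval 18.0 to 20.7) of the MT1E plus MT2A counts in control replicate 1 and 25.5% (24.1 to 26.8) in control replicate 2. It took 30.2% (29.1 to 31.4) in knockdown replicate 1 and 29.1% (28.0 to 30.3) in knockdown replicate 2. The knockdown shares were close to each other and above both control shares, which differed from each other beyond counting error. The mean share was 22.4 ± 4.33% in control and 29.7 ± 0.77% in knockdown (SD, n = 2). With 2 against 2 libraries an exact two-sided permutation test cannot give a p below 0.333, and no other test of the share was run. All metallothionein symbols together came to 339.9 and 313.1 CPM in control and to 597.6 and 429.1 CPM in knockdown, a ratio of means of 1.57.

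**Figure D3:**
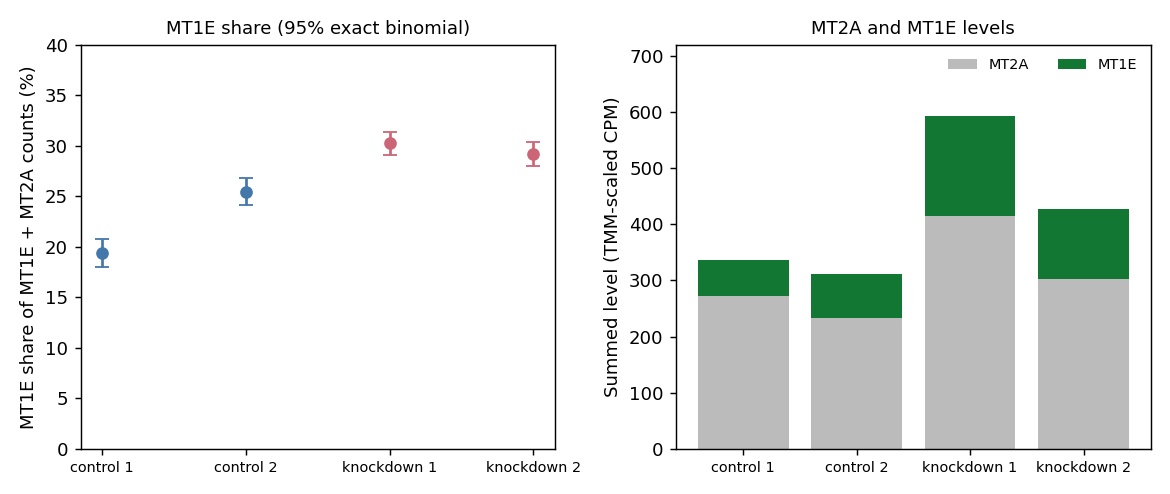
Left, MT1E as a percentage of MT1E plus MT2A counts in each library with 95% exact binomial intervals. Right, the levels of MT2A (grey) and MT1E (green) stacked in TMM-scaled CPM. The share is 19.3% and 25.5% in control against 30.2% and 29.1% in knockdown, and the stacked level is highest in knockdown replicate 1.

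Metallothionein transcripts are short, so short transcripts as a class were set beside them. Among 246 tested genes whose main GENCODE transcript has at most 800 bases, the median log2 fold change was 0.14 and 64.6% of values were positive. For 11662 genes with longer transcripts the median was −0.01 and 49.3% were positive (lengths were found for 91.4% of tested genes). MT2A and MT1E, at 786 and 704 bases, belong to the short class and MTF1, at 7972 bases, does not. The part of transcript length in the metallothionein values was not tested.

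No gene flanking the metallothionein cluster passed the edgeR threshold, an unadjusted p under 0.05, DESeq2 or limma-voom (0 each). Of all tested genes, 2.99%, 24%, 8.67% and 2.5% passed these in turn. Of 7 tested among 9 neighbours, 2 log2 fold changes were positive and 5 negative, and the median was −0.15. GNAO1, a G protein subunit gene, averaged 17.1 CPM in control and 10.8 CPM in knockdown (edgeR adjusted p = 0.226). HERPUD1, an endoplasmic reticulum stress gene, averaged 93.4 and 73.2 CPM (edgeR adjusted p = 0.35). BBS2, next to the cluster on the MT4 side, had a value of 0.37 on the log2 scale, and NUP93, next to MT1X, one of −0.15.

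Zinc transporter genes had values in both directions and no call in edgeR. SLC30 proteins carry zinc out of the cytosol, and of 7 tested 0 passed in edgeR and DESeq2 (2 at an unadjusted p under 0.05), with a median log2 fold change of 0.22. Here and in the copper, metal stress and regulator lists limma-voom also called 0. Of all tested genes, edgeR called 2.99%, DESeq2 8.67% and limma-voom 2.5%, and 24% had an unadjusted p under 0.05. SLC30A1, the plasma membrane exporter and a classical MTF1 target, stood at 8.98 and 24.7 CPM in control and at 19.2 and 27.7 CPM in knockdown, so its groups overlapped (edgeR adjusted p = 0.591). The smallest p-values belonged to SLC30A7, a Golgi transporter that averaged 80.1 CPM in control and 41.6 CPM in knockdown (edgeR adjusted p = 0.157), and to SLC30A3, with averages of 3.21 and 1.31 CPM (edgeR adjusted p = 0.168). SLC39 proteins bring zinc into the cytosol, and of 11 tested 0 passed in edgeR and 1 in DESeq2 (4 at an unadjusted p under 0.05), with a median of 0.08. SLC39A10, an importer whose gene is known to be repressed by MTF1, stood at 76.8 and 101.4 CPM in control and at 17.3 and 36.3 CPM in knockdown (log2 fold change −1.73, edgeR adjusted p = 0.062). SLC39A7, which releases zinc from the endoplasmic reticulum, stood at 181.4 and 289.1 CPM on average (edgeR adjusted p = 0.125).

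Copper handling genes gave 0 calls of 12 tested in edgeR and DESeq2 (2 at an unadjusted p under 0.05), with 7 positive and 5 negative values and a median log2 fold change of 0.16. The copper chaperones of cytochrome c oxidase had the smallest p-values. SCO2 averaged 14.1 CPM in control and 29.6 CPM in knockdown (edgeR adjusted p = 0.101), and SCO1 averaged 52.4 and 35.6 CPM (edgeR adjusted p = 0.198). Of 11 tested genes of the heat shock and oxidant response to heavy metals, 0 passed in edgeR and 2 in DESeq2 (4 at an unadjusted p under 0.05), 8 values were positive and the median was 0.41. To set beside both lists, edgeR called 2.99% of all tested genes and DESeq2 8.67%, and 24% had an unadjusted p under 0.05. HMOX1, the heme oxygenase gene, stood at 30.5 and 27.2 CPM in control and at 117.5 and 58.3 CPM in knockdown (log2 fold change 1.61, edgeR adjusted p = 0.0643). As with MT1E, knockdown replicate 1 was the highest library. GCLM, a subunit of the enzyme that starts glutathione synthesis, stood at 52.5 and 115.7 CPM on average (edgeR adjusted p = 0.053). Of the heat shock genes in this list, HSPA6 had a log2 fold change of −1.33 at 2.05 CPM or less on average, HSPA1A −0.04, HSPA1B 0.06, HSPH1 0.11 and DNAJB1 0.41.

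Among 7 tested glucocorticoid response genes 1 rose and 1 fell in edgeR, where 2.99% of all genes were called. DESeq2 called 5 of the 7 (8.67% of all genes) and limma-voom 2 (2.5% of all genes). An unadjusted p under 0.05 was found for 5 of the 7, 2 higher and 3 lower, where 24% of all genes passed. NR3C1, which encodes the glucocorticoid receptor, rose 2.68-fold from 70.0 and 80.4 CPM to 182.6 and 220.8 CPM (edgeR adjusted p = 0.0363). TSC22D3, a receptor target also called GILZ, fell 5.86-fold from 37.1 and 27.3 to 4.94 and 5.99 CPM (edgeR adjusted p = 0.0272). The list median was −0.45, with 3 positive and 4 negative values. Of 7 other regulators of metallothionein genes 0 passed in edgeR and 1 in DESeq2, with a median of −0.04. At an unadjusted p under 0.05 there were 2 of 7, where 24% of all genes passed. STAT3, which carries the interleukin-6 signal to its target genes, averaged 138.5 CPM in control and 256.7 CPM in knockdown (edgeR adjusted p = 0.0672). SP1, a general activator, averaged 125.2 and 83.7 CPM (edgeR adjusted p = 0.167).

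**Figure D4:**
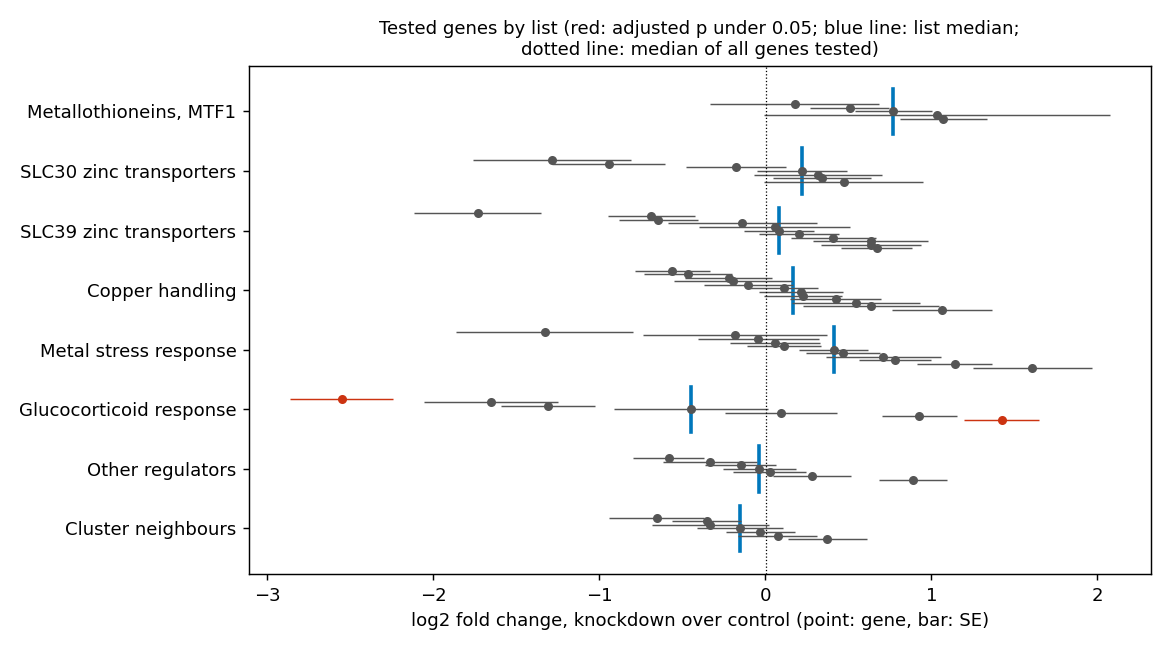
Log2 fold change of knockdown over control with its SE for each tested gene, by list, with list medians in blue and genes past the threshold in red. The 5 tested members lie between 0.18 and 1.07, the transporter and copper lists spread to both sides of 0, and the red points are TSC22D3 on the left and NR3C1 on the right.

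Genes with the pattern most like that of MT2A and MTF1 were found by the distance between log2 CPM profiles centred on their mean over the 4 libraries, among 13021 other tested genes. The nearest to MT2A with at least 5 CPM were NFE2L1, CUL7, MARCH2, DDRGK1 and NABP1. NFE2L1, a transcription factor of the CNC family that drives proteasome genes, stood at 276.2 and 240.3 CPM in control and at 428.6 and 307.5 CPM in knockdown (distance 0.0256 in log2 units). The 5 genes were picked by this same distance, so most other genes lie farther from MT2A than these 5. Of the other tested members, MT1F ranked 1952 of 13021, MTF1 2537, MT1E 4390 and MT1X 11767 in distance from MT2A. MT1F and MT1X averaged 1.09 and 1.10 CPM over the libraries, below the 5 CPM asked of the nearest genes. The nearest to MTF1 were APTR, CCDC34, RMND1, EIF2AK4 and TBC1D9, at distances from 0.027 to 0.0424. EIF2AK4, the amino acid-sensing kinase GCN2, stood at 107.4 and 110.4 CPM in control and at 180.7 and 190.7 CPM in knockdown. With 4 libraries and so many genes, close profiles are a description only.

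**Figure D5:**
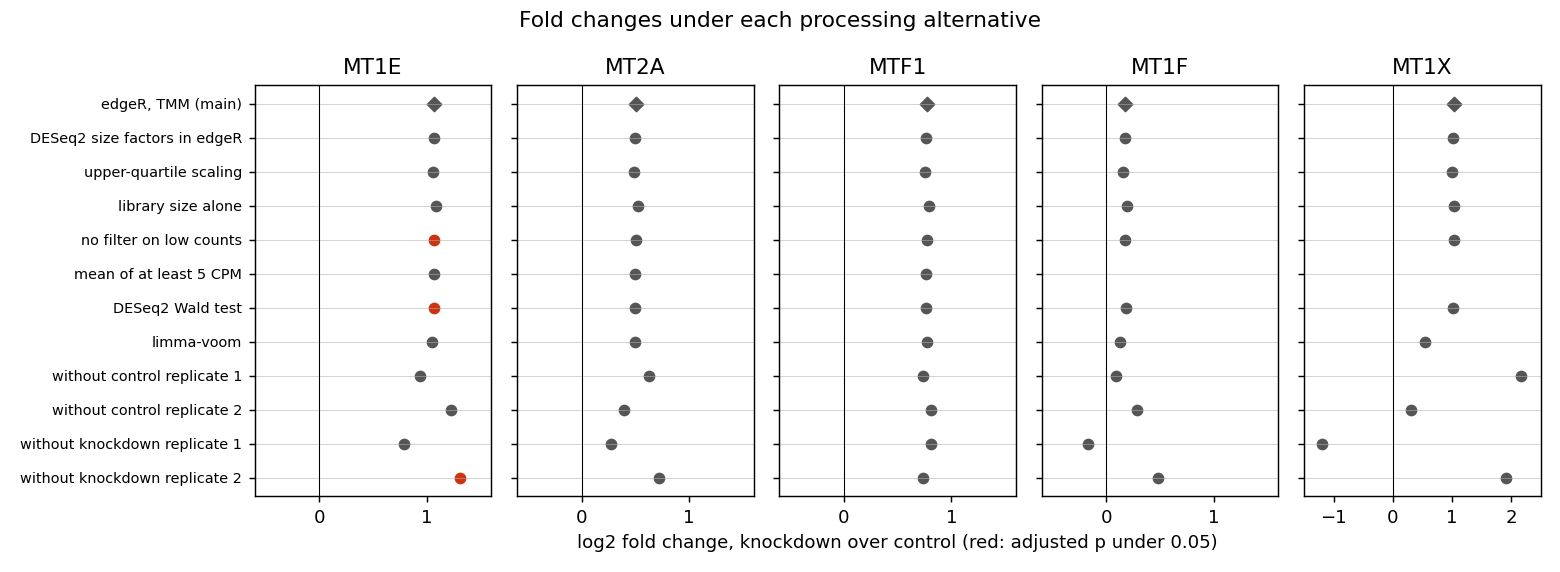
Log2 fold change of the 5 tested members under the processing used here (diamonds) and under each alternative that keeps the design (circles), in red where the adjusted p was under 0.05. MT1E, MT2A and MTF1 stay positive throughout, from 0.79 to 1.31, 0.27 to 0.72 and 0.74 to 0.81, whereas MT1F and MT1X cross 0 when knockdown replicate 1 is left out.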

How the data were processed

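Per the labels' protocols, total RNA from Trizol extraction went into libraries prepared with an Illumina TruSeq RNA kit. The authors deposited unnormalized read counts for each gene symbol. Of tools, the submitters' processing notes list STAR 2.5.2b, HTSeq 0.6.1, cutadapt and limma with no role for each, and of builds GRCh37 and hg19. No source used here gives the annotation, strand setting or filters, so overlapping genes cannot be kept apart.

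The sample labels gave the groups. Counts were fitted in edgeR 4.0.16 (R 4.3.3) with TMM scaling, filterByExpr (minimum count 10, minimum total 15) and its quasi-likelihood test, comparing knockdown with control over all 13022 genes that passed, with Benjamini-Hochberg adjustment over all of them and a threshold of 0.05. The SE is the log2 fold change over the square root of F. Log2 CPM for the profiles used a prior count of 2. Chi-square values for replicate counts, divided by their degrees of freedom, were 40.4 for control and 44.5 for knockdown, far above sampling noise. Each library counted as its own sample, though such values do not show that the replicates are separate cultures. Alternatives were other scalings, filters, DESeq2 1.42.0, limma-voom (limma 3.58.1), a replicate term and leaving out each library.

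The members and gene lists were chosen with earlier results of these data known. Named genes were the 7 members, TRMT13, the called genes of each list other than the cell type markers or else the 2 with the smallest p, and the 5 nearest profiles. SLC30A1, BBS2, NUP93, the heat shock genes and the single cell type markers were named in addition, after their values were seen. The edgeR step was tested on simulated counts for 13022 genes, where it found 27 of the 100 genes with a planted 2-fold change and 86 of the 100 with a 4-fold one, with 15 false among 128 calls. Motif, coding and 50-base searches used Python 3.11.15 and Biopython 1.88.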

Additional observations from a re-analysis of the deposited data

How the results depend on the processing

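Scaling by DESeq2 size factors, upper quartile or library size alone kept the direction and the side of the threshold of each tested member and of TRMT13. The count of 389 changed genes, with 0 members among them, became 1949 with 1 member with no filter on low counts, 1129 with 1 member with DESeq2, and 678 to 935 with 0 to 1 member when 1 library was left out. The member was MT1E each time, and the last case was without knockdown replicate 2. Leaving out a library leaves an arm of 1, assumed to vary like the other. The cause of these shifts was not tested. Without knockdown replicate 1 the log2 fold changes of MT1X and MT1F turned to −1.19 and −0.17, and that of MT1X was 2.17 without control replicate 1 and 0.31 without control replicate 2. With a mean of at least 5 CPM required, MT1F and MT1X were not tested.

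With the replicate number as a block, 5227 of 13022 tested genes passed, and so did 3 of 5 tested members. These were MT1E (log2 fold change 1.05, edgeR adjusted p = 4.13e-05), MTF1 (0.77, adjusted p = 0.000777) and MT2A (0.49, adjusted p = 0.0131), all higher in knockdown. The deviations of equal replicate numbers agreed across genes (r = 0.639). The library titles also number the control and knockdown of each replicate consecutively, with a gap between the replicates. The labels do not say that a replicate number marks a shared culture or day, and with 2 pairs the pairing is not established. TRMT13 stayed past the threshold in 12 of 12 alternatives, and so did NR3C1 and TSC22D3, for which the alternatives were added after seeing the data. Changes of 2-fold, the size seen for MT1E, can be missed with 2 libraries per group, and MT1F, MT1G, MT1M and MT1X rest on few counts. Replicates of MT1X and MT1G also differed widely.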
